A study of Mus musculus with 6 samples.

Results

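The genes described are 10 that encode proteins of the specific (secondary) and gelatinase (tertiary) granules of neutrophils, namely Ngp, Camp, Lcn2, Ltf, Cd177, Mmp8, Mmp9, Olfm4, Chil3 and Hp. They were chosen by name from knowledge of these granules, with earlier results of these data known. They are 10 of the 54532 genes in the deposited file. All 10 were abundant enough to be tested. Their transcripts were measured by RNA sequencing in neutrophils of the bone marrow of C57BL/6J mice, 3 libraries from WT and 3 from PGRN KO cultures, which lack the growth factor progranulin encoded by Grn. The cells were kept in siliconized tubes and then challenged with live Candida albicans for 6 h, so every library comes from infected cells and no uninfected library was analysed here. The neutrophils were purified with anti-Ly-6G magnetic beads. PGRN KO mice came from the Jackson Laboratory and WT mice from Chongqing Medical University, so the genotype and the source of the mice cannot be told apart. No source used here says how many mice went into a culture, so p-values measure only the spread between these libraries.

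A neutrophil fills its granules in the order in which it makes their proteins. Primary granules, with myeloperoxidase and elastase, form at the promyelocyte stage, specific granules follow in myelocytes and metamyelocytes, and gelatinase granules come last, in band cells. On contact with a microbe the later granules are released most readily, and they bring out proteins that bind iron or iron carriers, antimicrobial peptides, proteases that cut matrix, and adhesion molecules. The transcripts of these proteins are largely made in the marrow, and transcription factors of the C/EBP family, above all C/EBP epsilon, together with PU.1, are known to drive many of them.

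To show the promoters of the genes that this account turns on, the bases upstream of the transcription start are printed for the 3 changed genes that have an entry in the RefSeq table (Olfm4 and Mmp8, which fell, and Cd177, which rose) and for Ltf, a gene much used to study C/EBP epsilon. The sequences are on GRCm38 and run 5′ to 3′ along the strand of the gene from 250 bases before the RefSeq start, stopping before the first base that the annotation counts as exon. Capitals mark the letters TTNNGCAA, which C/EBP factors can bind, and GAGGAA, which holds the core letters of PU.1 sites, each on either strand.
Olfm4 (chr14:80000052-80000250, plus strand): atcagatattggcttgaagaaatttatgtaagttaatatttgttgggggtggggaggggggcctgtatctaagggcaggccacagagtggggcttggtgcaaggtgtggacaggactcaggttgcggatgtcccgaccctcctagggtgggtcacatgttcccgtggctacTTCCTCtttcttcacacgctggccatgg
Mmp8 (chr9:7558179-7558428, plus strand): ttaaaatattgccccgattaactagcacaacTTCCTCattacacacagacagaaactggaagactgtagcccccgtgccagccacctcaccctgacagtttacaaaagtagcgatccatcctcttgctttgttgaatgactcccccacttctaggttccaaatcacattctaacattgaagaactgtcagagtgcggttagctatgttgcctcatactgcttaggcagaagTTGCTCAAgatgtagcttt
Cd177 (chr7:24760312-24760561, minus strand): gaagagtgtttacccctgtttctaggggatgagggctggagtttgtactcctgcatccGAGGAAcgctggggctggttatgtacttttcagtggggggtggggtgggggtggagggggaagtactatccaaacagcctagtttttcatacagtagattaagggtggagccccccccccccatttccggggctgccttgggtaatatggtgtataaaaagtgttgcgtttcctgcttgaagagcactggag
Ltf (chr9:111019042-111019270, plus strand): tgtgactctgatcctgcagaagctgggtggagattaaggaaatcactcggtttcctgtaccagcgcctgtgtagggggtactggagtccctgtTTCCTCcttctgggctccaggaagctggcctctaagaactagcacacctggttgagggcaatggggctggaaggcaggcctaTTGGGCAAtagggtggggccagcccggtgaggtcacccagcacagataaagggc
The table holds 8 of the 10 genes, and Mmp9 and Hp are not in it. The RefSeq start of Olfm4 lies inside the longer span that the annotation used by the authors gives the gene. Over the whole 250 bases, TTNNGCAA was found in 4 of the 8 genes (Lcn2, Ltf, Mmp8 and Ngp) and in 9.55% of 27025 promoters of the same length. GAGGAA was found in 5 of the 8 (Cd177, Lcn2, Ltf, Mmp8 and Olfm4) and in 23.1% of those promoters. The 250 bases hold annotated exon for Camp, Ngp, Olfm4 and Ltf (161, 61, 51 and 21 bases), and for Lcn2 they begin in annotated exon. Of the 2 TTNNGCAA matches of Ngp, the one at -11 from the RefSeq start lies in annotated exon. The C/EBP letters therefore stood before the RefSeq start of Mmp8, which fell, and of Lcn2, Ltf and Ngp, which did not pass the test. Olfm4 and Cd177 held only the PU.1 letters. The letters were chosen with the results known, and a match is a description of these bases.

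The values are FPKM (fragments normalized to gene length and library size), so levels of different genes can be set side by side. Multiplied by gene length, the values returned 17087344 to 18821091 fragments per library. Grn checked the labels, at 161.3 to 168.4 FPKM in WT and 0.206 to 0.747 FPKM in PGRN KO libraries. Neutrophil markers were present in all 6 libraries, with a summed level of 48511 to 52045 FPKM in WT and 49908 to 58420 FPKM in PGRN KO. Nearly all of the sum is S100a9 (means 31333 and 36371 FPKM) and S100a8 (17949 and 16846 FPKM). The other markers had means of 44.1 to 825.7 FPKM in WT and 42.3 to 912.7 FPKM in PGRN KO, with Ly6g at 49.9 and 45.6 FPKM. No library stood apart within its genotype, and Pearson correlations across genes were 0.991 to 0.992 within a genotype and 0.978 to 0.981 between genotypes.

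Of the 10 granule genes, Cd177 and Mmp9 rose and Olfm4 and Mmp8 fell in PGRN KO neutrophils, while Ngp, Camp, Lcn2, Ltf, Chil3 and Hp did not pass the test. The test was limma on log2(FPKM + 1) over 14807 genes, and genes with a Benjamini-Hochberg adjusted p under 0.05 are called. In that comparison 7.94% of all tested genes were called higher and 9.95% lower, beside 2 of 10 and 2 of 10 here. Other scalings of the libraries shifted this balance, to 5 higher and 1 lower of the 10 with quantile normalization and to 3 and 1 both with plain totals of fragments and with equal totals of all other genes. Over all genes, quantile normalization called 1144 higher and 1398 lower, plain totals called 2149 and 934, and equal totals called 1774 and 1071, against 1175 and 1473 in the comparison reported. The libraries of the genotypes did not overlap for 6 of the 10 (2 higher and 4 lower), where 37.7% of all tested genes did not overlap in either direction. The median log2 fold change was 0.056 over the 10 genes and 0.0026 over all tested genes. The cultures are bulk samples, in which fewer cells of a type and less RNA per cell cannot be told apart.

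**Figure D1:**
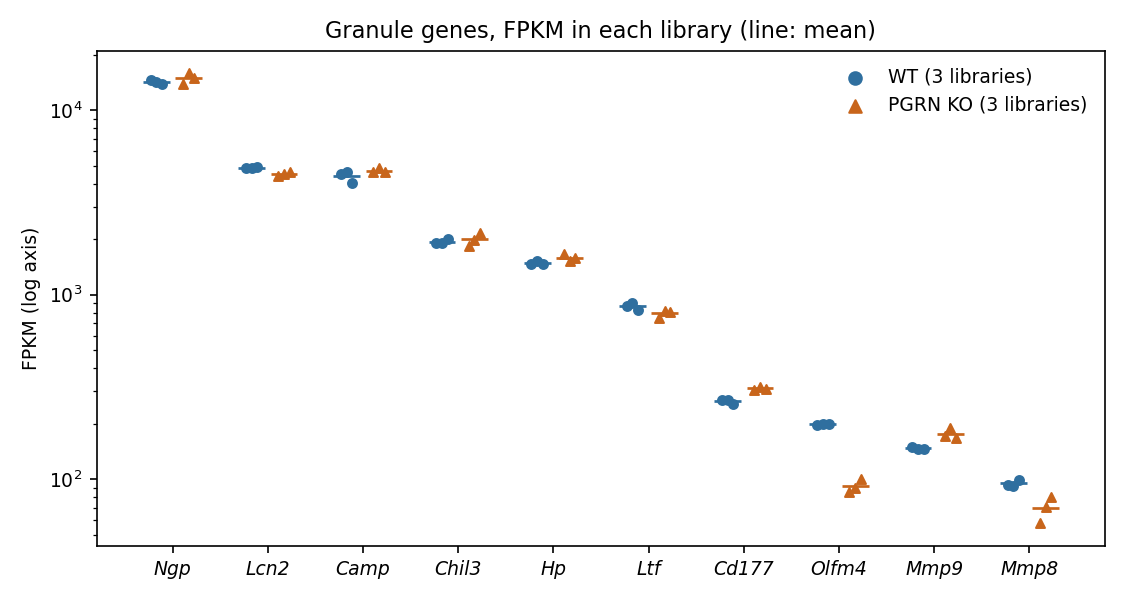
FPKM of the 10 granule genes on a log axis in each of the 3 WT (circles) and 3 PGRN KO (triangles) libraries, with a line at each mean (n = 3). Ngp stands highest, at 13854 to 15853 FPKM, and the Olfm4 points of PGRN KO (85.6 to 100.3) lie far under those of WT (197.1 to 200.0).

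Olfm4 encodes olfactomedin 4, a glycoprotein of specific granules that only some neutrophils carry. The gene (ENSMUSG00000022026, chr14:79984081-80023139, plus strand) stood at 197.1, 200.0 and 199.4 FPKM in the WT libraries and at 85.6, 89.0 and 100.3 FPKM in the PGRN KO libraries. All 3 PGRN KO libraries were therefore far under all 3 WT libraries, which lay very close together. Olfm4 fell by 53.9%, from 198.9 ± 1.53 to 91.7 ± 7.71 FPKM (SD, n = 3 each). Its log2 fold change of -1.11 had a standard error of 0.062 and a 95% confidence interval of -1.26 to -0.96 (limma, Benjamini-Hochberg adjusted p = 0.000217). The values rest on 29915 fragments in WT and 15157 in PGRN KO. The coefficient of variation was 0.770% in WT and 8.41% in PGRN KO. Counting error alone gives 1.49% for the library with the fewest Olfm4 fragments, a PGRN KO library with 4526. The WT spread was no larger than counting error, so its SD may understate the real spread. A long noncoding RNA on the same strand, Gm6999, overlaps the gene, and 1.86% of the windows of 100 bases in Olfm4 transcripts also occur there. Gm6999 itself had a mean of 0.0089 FPKM in WT and was listed at 0 in PGRN KO.

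The granule proteases moved in opposite directions. Mmp8, the neutrophil collagenase of specific granules (ENSMUSG00000005800, chr9:7558456-7568485, plus strand), stood at 93.5, 92.1 and 98.8 FPKM in WT and at 57.7, 70.5 and 80.4 FPKM in PGRN KO. The PGRN KO libraries were all lower and were spread more widely than those of WT, with a coefficient of variation of 16.4% against 3.77%. Counting error alone gives 2.00% for the library with the fewest Mmp8 fragments, which had 2498. Mmp8 fell by 26.7%, from 94.8 ± 3.57 to 69.5 ± 11.4 FPKM (SD, n = 3 each), with a log2 fold change of -0.45 (standard error 0.11, 95% confidence interval -0.72 to -0.18, limma with Benjamini-Hochberg adjusted p = 0.0365). The call was lost when any 1 of the WT libraries or PGRN KO replicate 5 was left out (limma adjusted p = 0.0907 to 0.105) and also with no filter on low values and under 3 other scalings of the libraries (limma adjusted p = 0.0607 to 0.0854).

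Mmp9, the gelatinase that gives tertiary granules their name (ENSMUSG00000017737, chr2:164940780-164955850, plus strand), stood at 149.8, 145.2 and 145.0 FPKM in WT and at 170.7, 188.3 and 166.7 FPKM in PGRN KO. Each PGRN KO library was above each WT library. Mmp9 rose by 19.5%, from 146.7 ± 2.72 to 175.2 ± 11.5 FPKM (SD, n = 3 each), with a log2 fold change of 0.25 (standard error 0.054, 95% confidence interval 0.12 to 0.38, limma with Benjamini-Hochberg adjusted p = 0.0224). Without any 1 of the WT libraries, or without PGRN KO replicate 5, the limma adjusted p lay between 0.0511 and 0.0847. Within single libraries the ratio of Mmp8 to Mmp9, which does not change when all values of a library are multiplied by 1 factor, was 0.624, 0.634 and 0.681 in WT and 0.338, 0.374 and 0.482 in PGRN KO. The collagenase transcript thus stood lower beside the gelatinase transcript in every PGRN KO library. This ratio and those given later were chosen after the values were seen.

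Cd177 encodes a surface glycoprotein that is stored in specific granules. The human protein presents proteinase 3 on the neutrophil surface and binds PECAM-1 on endothelium. The gene (ENSMUSG00000052212, chr7:24743983-24760311, minus strand) stood at 268.0, 269.8 and 256.0 FPKM in WT and at 304.1, 316.3 and 309.6 FPKM in PGRN KO. The genotypes did not overlap, and the libraries of each lay close together. Cd177 rose by 17.2%, from 264.6 ± 7.49 to 310.0 ± 6.14 FPKM (SD, n = 3 each), with a log2 fold change of 0.23 (standard error 0.040, 95% confidence interval 0.13 to 0.32, limma with Benjamini-Hochberg adjusted p = 0.0112). The limma adjusted p was 0.0511 without PGRN KO replicate 5. Cd177 transcripts share 1.79% of their windows of 100 bases with BC049730 and Gm4763, so a small part of its reads could belong to either.

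**Figure D2:**
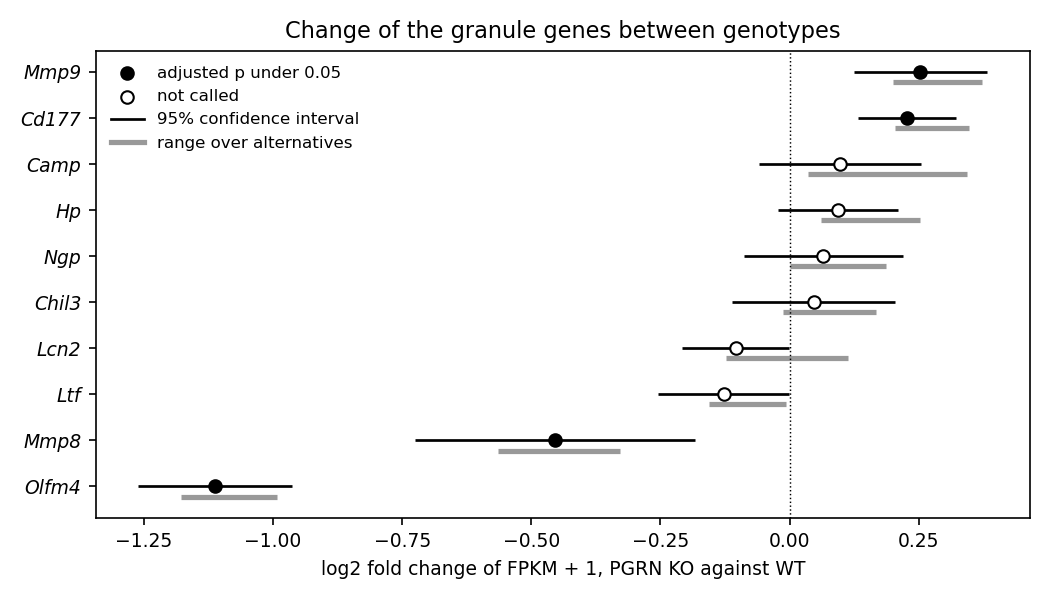
Log2 fold change of FPKM + 1 in PGRN KO against WT for the 10 granule genes, with the 95% confidence interval from limma (black) and the range over 17 other ways to process the values (grey). Filled points (Mmp9, Cd177, Mmp8 and Olfm4) had an adjusted p under 0.05, and only Lcn2 and Chil3 have a grey range that reaches both sides of 0.

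Ngp and Camp were the most abundant of the 10 together with Lcn2, and neither Ngp nor Camp passed the test with the values as deposited. Ngp encodes neutrophilic granule protein, a relative of the cathelicidins and cystatins. The gene (ENSMUSG00000032484, chr9:110419747-110423012, plus strand) was the fourth most abundant of all genes by mean FPKM in both genotypes, so its rank was the same. It stood at 14489, 14246 and 13944 FPKM in WT and at 13854, 15853 and 15012 FPKM in PGRN KO. The libraries overlapped, with the lowest and the highest values both in PGRN KO. The log2 fold change was 0.07 (standard error 0.065, 95% confidence interval -0.089 to 0.22, limma with Benjamini-Hochberg adjusted p = 0.539), around means of 14226 ± 273 and 14907 ± 1004 FPKM (SD, n = 3 each).

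Camp encodes the cathelicidin that is cut to the peptide CRAMP, which can kill bacteria and fungi. The gene (ENSMUSG00000038357, chr9:109847379-109849617, minus strand) stood at 4521, 4645 and 4022 FPKM in WT and at 4612, 4841 and 4640 FPKM in PGRN KO. The genotypes overlapped, since 1 WT library lay above 2 of the PGRN KO libraries. The log2 fold change was 0.10 (standard error 0.066, 95% confidence interval -0.059 to 0.25, limma with Benjamini-Hochberg adjusted p = 0.362). Camp passed the threshold with quantile normalization, at a log2 fold change of 0.34 (limma adjusted p = 0.0158).

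The iron-binding defenses, Lcn2 and Ltf, stood slightly lower in PGRN KO libraries without passing the adjusted test. Lcn2 encodes lipocalin 2, which captures bacterial siderophores, the carriers with which microbes collect iron. The gene (ENSMUSG00000026822, chr2:32384633-32388252, minus strand) stood at 4839.9, 4862 and 4890.4 FPKM in WT and at 4409, 4522 and 4644 FPKM in PGRN KO. No library of one genotype reached the range of the other. The means were 4864 ± 25.3 and 4525 ± 118 FPKM (SD, n = 3 each), with a log2 fold change of -0.10 (standard error 0.044, 95% confidence interval -0.21 to -0.00051, limma with unadjusted p = 0.0492 and Benjamini-Hochberg adjusted p = 0.154). The sign depends on the scaling, since the log2 fold change was 0.016 when libraries were scaled to their plain totals of fragments and 0.11 with quantile normalization.

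Ltf encodes lactoferrin, which binds iron itself and whose release withholds iron from yeasts and bacteria. The gene (ENSMUSG00000032496, chr9:111019271-111042767, plus strand) stood at 867.1, 895.6 and 829.5 FPKM in WT and at 745.9, 820.0 and 806.9 FPKM in PGRN KO. All PGRN KO libraries were lower than all WT libraries, by little at the nearest pair. The means were 864.1 ± 33.2 and 790.9 ± 39.5 FPKM (SD, n = 3 each), with a log2 fold change of -0.13 (standard error 0.053, 95% confidence interval -0.26 to -0.00053, limma with unadjusted p = 0.0493 and Benjamini-Hochberg adjusted p = 0.154). Camp, Ngp and Ltf lie together on chromosome 9 in a span of 1195389 bases that holds 54 genes of the file, and none of the 3 passed the test.

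Chil3 encodes a chitinase-like protein (Ym1) that binds chitin-like sugars without cutting them and is made by mouse neutrophils and macrophages. The gene (ENSMUSG00000040809, chr3:106147554-106167564, minus strand) stood at 1898, 1899 and 1997 FPKM in WT and at 1843, 1989 and 2163 FPKM in PGRN KO. The range of WT lay inside that of PGRN KO. The log2 fold change was 0.046 (standard error 0.066, 95% confidence interval -0.11 to 0.20, limma with Benjamini-Hochberg adjusted p = 0.682), and it was -0.012 without PGRN KO replicate 6. With plain totals of fragments it was 0.17 without passing the test, and with quantile normalization Chil3 passed at 0.15 (limma adjusted p = 0.0286). Chil3 transcripts share 4.93% of their windows of 100 bases with the near copies Chil4 and Gm6522, and Chil4 itself had 1 fragment over all 6 libraries.

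Hp encodes haptoglobin, the binder of free hemoglobin, which neutrophils store in specific granules. The gene (ENSMUSG00000031722, chr8:109575128-109579172, minus strand) stood at 1463, 1525 and 1457 FPKM in WT and at 1655, 1513 and 1578 FPKM in PGRN KO. The genotypes overlapped through 1 library of each. The log2 fold change was 0.094 (standard error 0.049, 95% confidence interval -0.023 to 0.21, limma with Benjamini-Hochberg adjusted p = 0.244). Hp passed the threshold under 3 other scalings of the libraries, with log2 fold changes of 0.17 to 0.25.

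The order of the 10 levels was the same in all 3 WT libraries, from Ngp through Lcn2, Camp, Chil3, Hp, Ltf, Cd177, Olfm4 and Mmp9 down to Mmp8, and no neighbours overlapped. In PGRN KO the order differed at 2 places. Olfm4 stood under Mmp9 in all 3 PGRN KO libraries and above it in all 3 WT libraries. The ratio of Olfm4 to Mmp9 was 1.32, 1.38 and 1.38 in WT and 0.502, 0.473 and 0.602 in PGRN KO. Camp stood above Lcn2 in PGRN KO replicates 4 and 5 but not 6, and the ranges of these genes overlapped there. In the ranking of all genes by mean FPKM, Olfm4 moved from place 240 in WT to place 529 in PGRN KO.

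Other ratios within a library, also chosen after the values were seen, did not overlap between the genotypes. Olfm4 to Ltf, a pair of specific granule genes, was 0.227, 0.223 and 0.240 in WT and 0.115, 0.109 and 0.124 in PGRN KO, so that the mean ratio in PGRN KO was 0.503 of that in WT. Camp to Lcn2 was 0.934, 0.955 and 0.822 in WT and 1.05, 1.07 and 0.999 in PGRN KO. Ltf to Ngp was 0.0598, 0.0629 and 0.0595 in WT and 0.0538, 0.0517 and 0.0537 in PGRN KO. Of all 45 pairs among the 10 genes, 35 (77.8%) had ratios that did not overlap between genotypes, and the 5 pairs given are among these. No such share was computed for pairs of other genes, so the 77.8% has nothing to be set against and cannot be read as particular to these genes. Pairs that share a gene are also not independent. Quantile normalization, which also changes ratios within a library, brought Ltf and Ngp close together, with log2 fold changes of -0.029 and 0.

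**Figure D3:**
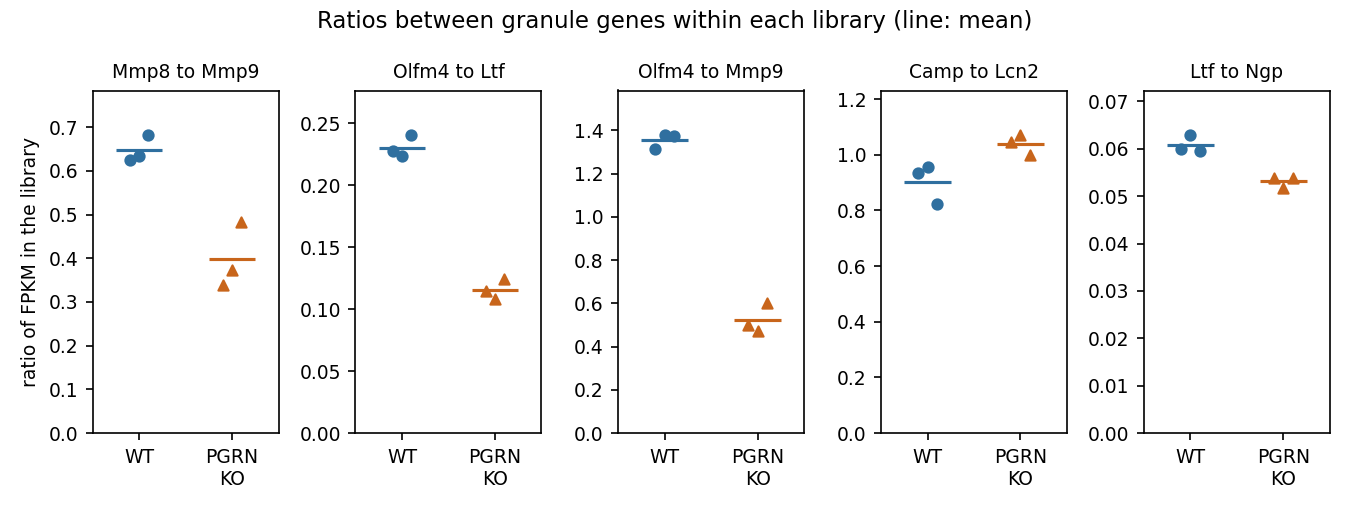
Ratio of the FPKM of 5 pairs of granule genes within each of the 3 WT (circles) and 3 PGRN KO (triangles) libraries, each axis from 0, with a line at each mean. These 5 pairs were chosen after the values were seen from the 35 of 45 that do not overlap between genotypes, and the ratio of Olfm4 to Mmp9 lies above 1 in every WT library and under 1 in every PGRN KO library.

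The 10 genes together took 4.18% to 4.29% of all fragments in WT and 4.40% to 4.80% in PGRN KO libraries. That share is one of plain totals of fragments. By summed FPKM the genotypes overlapped, since PGRN KO libraries held both the lowest sum (27737) and the highest (30202). Ngp alone made up 49.5% to 52.5% of the summed FPKM of the 10 genes. Their spread between libraries was larger in PGRN KO for 8 of the 10 genes, where it was larger for 53.4% of the 14549 tested genes with values above 0 in both genotypes.

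Among 18 other genes of specific and gelatinase granules, listed by function, 4 rose and 5 fell, and the median log2 fold change was 0.050. The counts of this and the following lists stand beside 7.94% of all tested genes called higher and 9.95% called lower. Those that rose were Pglyrp1, a peptidoglycan-binding protein (308.7 to 473.1 FPKM, log2 fold change 0.61), Lrg1, a secreted glycoprotein (92.8 to 124.7 FPKM, 0.42), Anxa3, an annexin (62.9 to 78.8 FPKM, 0.32), and Mmp25, a membrane-bound protease (30.8 to 36.4 FPKM, 0.24). Those that fell furthest were Orm1, the acute phase protein orosomucoid (274.5 to 136.4 FPKM, log2 fold change -1.0), Ptx3, a pentraxin that opsonizes fungi (1.34 to 0.522 FPKM, -0.63), Adam8, a membrane protease (176.4 to 115.8 FPKM, -0.60), and Slc11a1, a metal transporter also known as Nramp1 (256.2 to 182.8 FPKM, -0.48). The fifth was Stom (143.3 to 127.4 FPKM, log2 fold change -0.17), which is named although it falls outside the rule for named genes. The remaining 9, which include both subunits of the oxidase cytochrome (Cybb and Cyba), had log2 fold changes from -0.063 to 0.17. With quantile normalization, plain totals of fragments or equal totals of the other genes, 7 or 8 of the 18 rose and 4 fell, and with voom 7 rose and 5 fell. Both granule gene lists thus held genes that rose and genes that fell.

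Of the 8 tested genes of a primary granule list 7 rose and none fell, with a median log2 fold change of 1.61, although voom called Ctsc lower. Ctsg, cathepsin G, went from 13.8 ± 1.76 to 105.4 ± 4.06 FPKM (SD, n = 3 each), Prtn3, proteinase 3, from 37.6 ± 2.25 to 191.6 ± 15.1, Mpo, myeloperoxidase, from 11.2 ± 0.632 to 59.9 ± 6.43 and Elane, neutrophil elastase, from 59.5 ± 3.27 to 256.2 ± 9.32. The other 3 that rose had log2 fold changes of 0.25 to 1.14, Ctsc at -0.20 did not pass the test, and Bpi was too low to be tested. Among those 3 are Serpinb1a (0.25), an inhibitor of granule proteases, and Ms4a3 (1.14), a membrane protein, so the list is wider than granule contents. No test of the difference between the lists was run. Summed over the list, these genes stood at 272 to 289 FPKM in WT and 790 to 828 FPKM in PGRN KO. Serpinb1a alone contributed means of 125.9 FPKM in WT and 149.9 FPKM in PGRN KO. The 10 genes of the later granules summed to 27840 to 28787 and 27737 to 30202 FPKM.

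**Figure D4:**
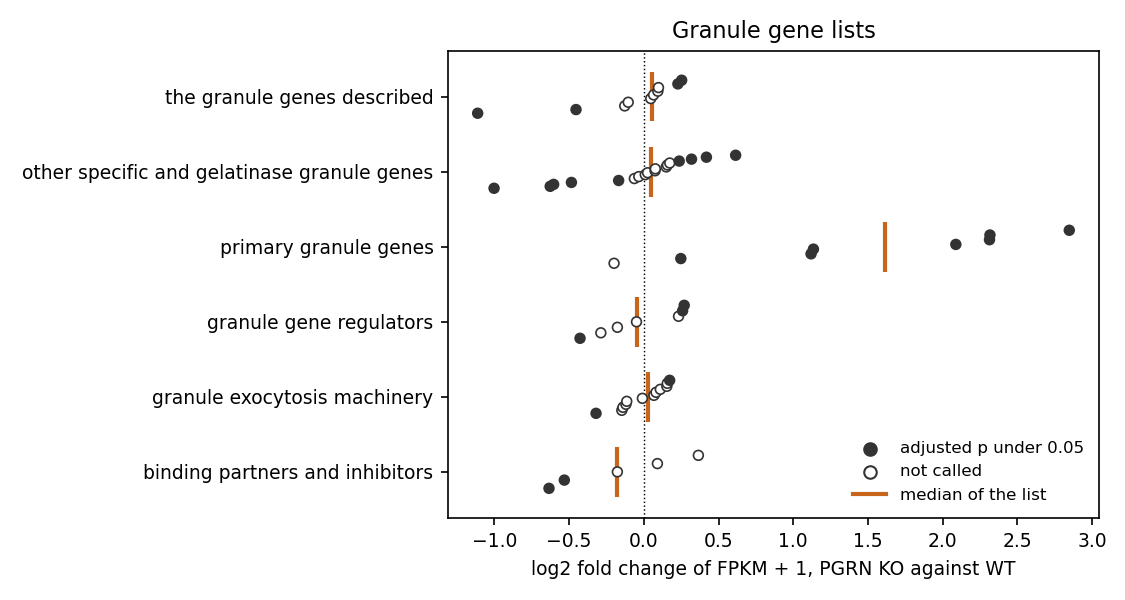
Log2 fold change of FPKM + 1 in PGRN KO against WT for each tested gene of 6 lists (points, filled where the adjusted p was under 0.05), with a bar at the median of each list. The 10 granule genes have a median of 0.056 and the other specific and gelatinase granule genes 0.050, both near 0, while that of the primary granule list is 1.61.

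Regulators of granule genes changed in both directions. Gfi1, a repressor needed for granulocyte development, rose from 6.10 to 7.55 FPKM (log2 fold change 0.27), and Cebpd rose from 31.5 to 37.8 FPKM (0.26). Cebpa, which acts early in the lineage, fell from 12.6 to 9.13 FPKM (log2 fold change -0.43). Cebpe, the factor most closely tied to specific granule genes, stood at 86.2 ± 9.89 FPKM in WT and 101.1 ± 5.79 FPKM in PGRN KO (SD, n = 3 each) without passing the test (limma, Benjamini-Hochberg adjusted p = 0.129). The remaining 3 of the 7 regulators did not pass the test either. Cebpb stood at 1578 FPKM in WT and 1301 FPKM in PGRN KO (log2 fold change -0.29). Spi1, which encodes PU.1, stood at 192.8 and 170.6 FPKM (-0.18), and Runx1 had a log2 fold change of -0.049. With voom 3 regulators rose and 3 fell.

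Of 12 genes for granule release, Rac2, a small GTPase needed for release of the primary granules, rose from 442.6 to 499.0 FPKM (log2 fold change 0.17), and Snap23, a membrane fusion protein, fell from 71.9 to 57.5 FPKM (-0.32). This is 1 of 12 in each direction, near the 7.94% of all tested genes called higher and the 9.95% called lower. The other 10 had log2 fold changes of -0.15 to 0.16, and plain totals of fragments called 3 higher and 1 lower. Among 9 receptors, inhibitors and partners of the granule proteins, 5 were tested and none rose. Lrp1, a receptor that takes up lactoferrin and MMP-9, fell from 6.84 to 4.06 FPKM (log2 fold change -0.63). Pecam1, whose product is a partner of human CD177, fell from 7.10 to 4.60 FPKM (-0.53). Timp1, an inhibitor of MMP-9, at 5.08 and 6.82 FPKM, Timp2 at 17.4 and 15.3 FPKM, and Fpr2, a receptor for cathelicidin peptides, at 531.3 and 567.9 FPKM did not pass the test.

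Some markers of maturity and of other cells also differed between the genotypes, and their part in the granule gene results was not tested. Over all tested genes 7.94% were called higher and 9.95% lower. Of 7 neutrophil markers, Csf3r fell (log2 fold change -0.16) and none rose, although 2 or 3 rose under quantile normalization, plain totals, equal totals and voom, and Csf3r fell only with voom among these 4. Of 8 genes of mature neutrophils, Selplg rose and Mxd1, Ccl6 and Csf3r fell, and under quantile normalization, plain totals and equal totals only Ccl6 fell. Cell cycle genes rose for 8 of 10, with a median log2 fold change of 0.38 and a summed level of 302.6 to 322.6 FPKM in WT and 382.8 to 415.6 FPKM in PGRN KO. Of 7 monocyte markers, Ly6c2 rose and Ccr2, F13a1 and Ms4a6c fell, with a median log2 fold change of -0.17 and 5 of the 7 negative. Their summed levels of 495.4 to 505.1 FPKM in WT and 516.5 to 661.0 FPKM in PGRN KO were mostly Ly6c2 (means 401.1 and 521.2 FPKM). Eosinophil and basophil markers rose for 5 of the 6 tested (summed level 3.72 to 4.18 FPKM in WT and 14.2 to 19.3 FPKM in PGRN KO). B and plasma cell markers rose for all 4 tested (430.2 to 444.7 and 2162 to 2455 FPKM, nearly all from Igkc). Erythroid markers rose for 3 of 4 tested (0.975 to 3.14 and 5.46 to 6.21 FPKM). Of the 6 T and NK cell markers only Nkg7 was tested, and it rose, with summed levels of 2.25 to 2.89 and 7.29 to 8.44 FPKM, while Cd3e and Cd3g were at 0 in all 6 libraries.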

How the data were processed

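RNA sequencing libraries of 3 WT and 3 PGRN KO neutrophil cultures were used, and their genotype was taken from the labels. The labels give no batch, and the genotypes share no replicate number. Per the labels, reads were prepared with a kit that does not mark strand, aligned to mm10/GRCm38 with HISAT2 2.0.5 and counted with featureCounts 1.5.0-p3, while the methods of the paper name other tools. The labels and the paper also differ on the ratio of yeast to cells. The authors deposited FPKM values, which are used here, and their own test was DESeq2 1.20.0. Of 54532 genes, 31614 were at 0 in all 6 libraries.

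FPKM multiplied by gene length gave whole fragments, within 0.05, for 100% of values above 0. The fragment totals were 1.03 to 1.04 times the library size behind the deposited FPKM in WT and 0.946 to 0.957 times in PGRN KO, which lowers PGRN KO values relative to plain totals. The deposited FPKM already had equal median-of-ratios factors, so that scaling left the comparison nearly unchanged. Depth covers counting error only.

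Genes whose FPKM averaged 0.1 or more over the 6 libraries were compared on log2(FPKM + 1) with limma 3.58.1 (lmFit, eBayes with trend) in R 4.3.3, with p-values two-sided and adjusted after Benjamini-Hochberg (14807 genes, threshold 0.05). The scale understates the change of low genes. The smallest p that an exact permutation test of 3 against 3 allows is 0.10, so none was used. The fit was tested on simulated data. No pair of libraries was within sampling noise of each other (chi-square per degree of freedom of at least 2.83). Python 3.11.15, numpy 2.4.6, pandas 2.3.3 and matplotlib 3.10.9 were used for the rest.

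The 10 genes and 13 other lists were chosen with earlier results of these data known, as were the promoter letters. The text names all 10 genes, Grn, Chil4 and, of each other list, at most the 4 genes called higher and the 4 called lower of largest log2 fold change, and gives the range of the rest. Other genes named from the lists, which did not pass the test or were not tested, are named for their role and were chosen after their values were seen. Stom, Ms4a3 and Serpinb1a passed the test and are named outside this rule. Gene positions are those of the file, and all 10 are the same in GENCODE M21 on GRCm38. Promoters are from RefSeq on GRCm38.p6. The alternatives were 2 other pseudocounts, 2 filters, 4 scalings, 2 kinds of moderation, voom with TMM factors on the recovered fragments, and each of the 6 libraries left out in turn.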

Additional observations from a re-analysis of the deposited data

How the results depend on the processing

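Across 17 alternatives Olfm4 stayed lower and past the threshold, with log2 fold changes of -1.18 to -0.99 (highest limma adjusted p 0.00266). Among the 17, median-of-ratios scaling divided every library by the same factor, so it could hardly change any result. The number called lower was 1, not 2, with no filter on low values, with quantile normalization, with plain totals of fragments and with equal total FPKM of all other genes, because Mmp8 lost its call (limma adjusted p = 0.0769, 0.0854, 0.0842 and 0.0607). The number called higher was 5 with quantile normalization, which added Camp (log2 fold change 0.34), Chil3 (0.15) and Hp (0.25), and 3 with plain totals (Hp, 0.21) and with equal totals of the other genes (Hp, 0.17). The median log2 fold change of the 10 genes was 0.13, 0.18 and 0.14 under these 3 scalings. That of Lcn2 was 0.11 with quantile normalization and 0.016 with plain totals, against -0.10. Over all genes, plain totals gave 2149 higher and 934 lower and equal totals 1774 and 1071, against 1175 and 1473. The median log2 fold change of all genes was 0.067 with plain totals and 0.045 with equal totals, against 0.0026. Voom gave 1643 higher and 1973 lower.

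With each library left out in turn, 0 to 2 of the 10 genes were called higher and 1 to 2 lower, and their median log2 fold change was 0.023 to 0.082. Without PGRN KO replicate 5 none was called higher and only Olfm4 lower, and over all genes 581 were higher and 804 lower. That of Chil3 lay between -0.012, without PGRN KO replicate 6, and 0.10. No paired analysis was possible because the genotypes share no replicate number. The 3 libraries of each genotype limit the precision more than depth does for these 10 genes, except for Olfm4 in WT. There the spread was no larger than counting error.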
